A study of Mus with 6 samples.

Results

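The miR-99/100 and miR-125 families were followed through small RNA libraries of mouse adipocytes, as 7 mature mouse miRNAs chosen by name: mmu-miR-99a-5p, mmu-miR-99b-5p, mmu-miR-100-5p, mmu-miR-125a-5p, mmu-miR-125b-5p and the opposite arms mmu-miR-99b-3p and mmu-miR-125a-3p. The prefix mmu marks the mouse and is left out where a miRNA is named again. They are 7 of 929 known miRNA names shared by all files, and all 7 had reads in every library. The labels give 3 libraries of adipocytes under chronic intermittent hypoxia (CIH), cycles of low and normal oxygen used as a model of sleep apnoea, and 3 control libraries. Both groups are of WT genotype and C57BL/6 strain, and the labels give no age, sex, fat depot, culture state or exposure time. No label says that the libraries stem from separate animals or cultures. The spread behind each p-value is therefore that between these libraries, and it may be technical.

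The miR-99/100 and miR-125 hairpins are encoded side by side with a let-7 hairpin, an arrangement that vertebrates carry in paralogous clusters. miR-99a, miR-99b and miR-100 share a seed, the stretch at the 5′ end that pairs with targets, and are known repressors of mTOR, the kinase of a growth and nutrient pathway. miR-125a and miR-125b share another seed and descend from the same ancestor as lin-4 of the worm Caenorhabditis elegans, a timer of larval development. In mouse fat, miR-125b-5p has been reported to restrain the appearance of brown-like adipocytes.

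The RefSeq table of GRCm38.p6 places the 3 clusters on different chromosomes. Mir99b, Mirlet7e and Mir125a lie closest together, within 692 bases of chromosome 17 (17830188 to 17830879) and inside the span of the gene Spaca6. Mir100, Mirlet7a-2 and Mir125b-1 are spread over 50578 bases of chromosome 9 (41531425 to 41582002), inside the span of the noncoding gene Mir100hg. Mir99a, Mirlet7c-1 and Mir125b-2 are spread over 47408 bases of chromosome 16 (77598936 to 77646343), where the table has no gene other than miRNAs spanning them. miR-125b-5p is made from hairpins on chromosomes 9 and 16 and its reads cannot be assigned to either. miR-99a-5p and miR-100-5p are near-identical, and how the authors' counting treated reads that match both is not given in the sources used here.

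Depth ranged from 7336758 to 11264151 counts in CIH libraries and from 6291101 to 9720485 in control libraries, so that 3 counts, taken as the floor, equal 0.266 to 0.477 CPM (counts rescaled so that every library has the same total). The libraries numbered 3 stood apart: their files list other names, and miR-148a-3p took 24.9% of CIH library 3 and 49.4% of control library 3, against 2.81% and 2.998% of the other CIH and 4.69% and 5.53% of the other control libraries. Values are therefore given for the libraries numbered 1 and 2 and for the pair numbered 3 as well as for all 6. All 5 adipocyte-enriched miRNAs looked for were present, with a summed level of 67397 to 145934 CPM under CIH and 103534 to 186220 CPM in control libraries. No miRNA marks adipocytes alone. The summed level of 4 leukocyte miRNAs was 0.266 to 3.27 CPM under CIH and 0.363 to 4.29 CPM in control, and that of the hepatocyte miRNA 2.09 to 5.59 and 2.16 to 4.12 CPM. Under CIH and in control libraries, summed erythroid miRNAs spanned 3.28 to 106 and 8.35 to 129 CPM, endothelial 73.1 to 104 and 33.8 to 137 CPM, muscle 11.6 to 38.7 and 12.6 to 111 CPM, epithelial 18.6 to 170 and 76.3 to 409 CPM and neuronal 52.0 to 105 and 56.5 to 198 CPM.

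The 7 miRNAs together made up 3.90%, 2.89% and 5.96% of CIH libraries 1, 2 and 3 and 3.54%, 3.303% and 2.17% of control libraries 1, 2 and 3. Each read spans a whole mature miRNA, so levels are given as CPM without division by length, and unequal capture of different miRNA ends during library preparation can affect the order of levels. Averaged over the libraries of a group, the order was miR-99a-5p, miR-99b-5p, miR-100-5p, miR-125b-5p, miR-125a-5p, miR-99b-3p and miR-125a-3p in both CIH and control libraries. miR-100-5p and miR-125b-5p, neighbours in this order, had overlapping ranges in each group, and the libraries numbered 3 set their order. In the 4 libraries numbered 1 and 2 miR-125b-5p was the higher of them, with a mean of 3380 against 3139 CPM under CIH and 3741 against 3626 CPM in control. Among control libraries, miR-125b-5p also overlapped with miR-125a-5p and miR-125a-5p with miR-99b-3p, in each case through control library 3.

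miR-99a-5p, the most abundant of the 7, stood at 23080, 15926 and 40268 CPM in CIH libraries 1, 2 and 3, and at 21079, 18435 and 10627 CPM in control libraries 1, 2 and 3. It ranked between 7 and 9 among all miRNAs in CIH and between 9 and 13 in control libraries. By library totals CIH library 3 had the highest and control library 3 the lowest value, and the groups overlapped. The totals were also taken without miR-148a-3p, a choice made after seeing the data. Control library 3, at 20982 CPM, then lay between control libraries 1 and 2, at 22313 and 19342 CPM.

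By library totals miR-99b-5p had the smallest ratio of highest to lowest value of the 7. It stood at 7247, 6399 and 8610 CPM in CIH libraries and at 5888, 6364 and 7530 CPM in control libraries, a ratio of 1.46. The libraries numbered 3 were highest in both groups. Leaving miR-148a-3p out of the totals put miR-99b-5p at 14868 CPM in control library 3, against 6233 and 6677 CPM in control libraries 1 and 2. The small ratio thus depends on the scaling. miR-100-5p stood at 3499, 2778 and 5519 CPM under CIH and 3608, 3643 and 2664 CPM in control libraries. By library totals CIH library 3 was again the highest and control library 3 the lowest. With miR-148a-3p left out of the totals, control library 3 stood at 5260 CPM, above control libraries 1 and 2 at 3819 and 3822 CPM.

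miR-125b-5p stood at 3942, 2817 and 3887 CPM in CIH libraries and at 3783, 3698 and 387 CPM in control libraries. The other 5 values lay between 2817 and 3942 CPM, and control library 3 alone was low, at 3194 reads against 23801 and 35950 in control libraries 1 and 2. miR-125a-5p showed the same single low library, at 993, 807 and 1002 CPM under CIH and 836, 713 and 139 CPM in control libraries. For both, the CIH range overlapped that of control libraries 1 and 2. Compared within each library number by library totals, miR-125a-5p was higher under CIH in all 3 pairs, as were miR-99b-5p and miR-125a-3p. miR-125b-5p was higher in 2 of 3 pairs. The share of all miRNAs higher in all 3 pairs was not computed, so these counts cannot be read as a trait of the members. No label says that equal numbers mark pairs. With miR-148a-3p left out of the totals, miR-99b-5p was lower under CIH for number 2 (6584 against 6677 CPM) and number 3 (11465 against 14868 CPM).

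The opposite arms were scarcer. miR-99b-3p stood at 226, 202 and 306 CPM under CIH and 206, 163 and 358 CPM in control libraries, highest in control library 3. miR-125a-3p stood at 18.5, 13.5 and 28.2 CPM under CIH and 12.9, 12.04 and 8.96 CPM in control libraries. By library totals it was the only member whose groups did not overlap, every CIH library lying above every control library. With miR-148a-3p left out of the totals its groups overlapped, at 13.9 CPM in CIH library 2 and 17.7 CPM in control library 3. The value in control library 3 rests on 74 reads. Over all 456 miRNAs tested, 7.46% were higher in CIH without overlap and 3.73% lower, to be set beside 1 of 7 and 0 of 7 members.

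**Figure D1:**
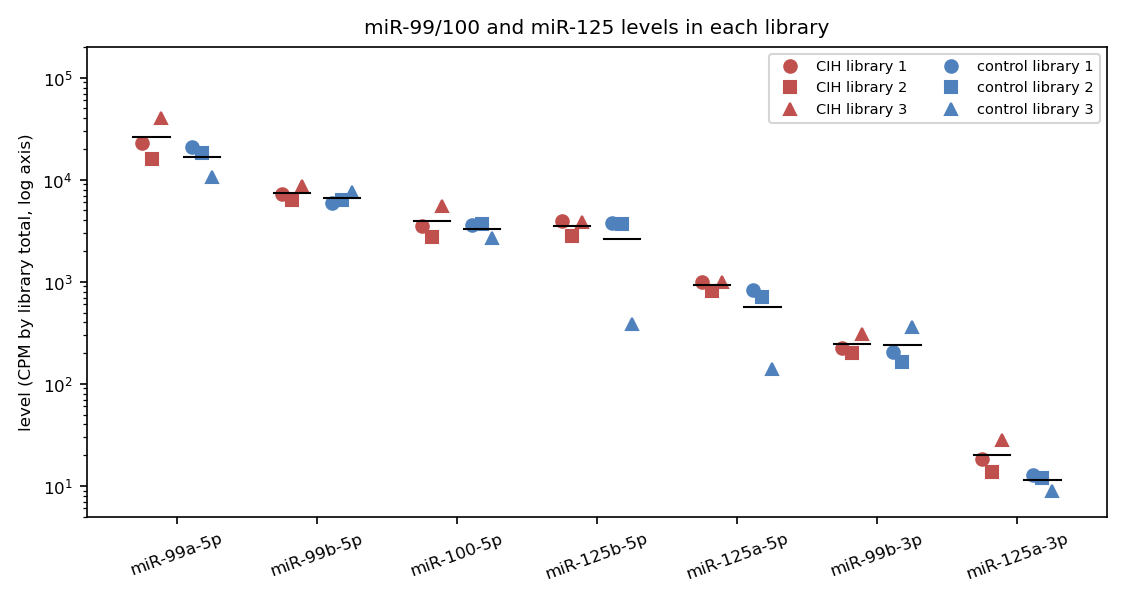
Level of each of the 7 miRNAs (CPM by library total, log axis) in the 3 CIH libraries (red) and the 3 control libraries (blue), with marker shape for the library number and a black line for the group mean. Control library 3 stands at 387 CPM for miR-125b-5p and 139 CPM for miR-125a-5p, below the other 5 libraries, while its miR-99b-5p is at 7530 CPM.

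In the comparison of all 6 libraries, none of the 7 members passed edgeR's quasi-likelihood test after Benjamini-Hochberg adjustment over 456 miRNAs. The background is the same, with 0 called (0%) and 23 at an unadjusted p under 0.05, none of them a member. miR-125a-5p had the largest log2 difference of the 7, 0.75 (SE 0.51, adjusted p = 0.899), at 934 ± 110 CPM under CIH and 562 ± 372 CPM in control libraries (SD, n = 3 each). miR-125a-3p had 0.65 (SE 0.45, adjusted p = 0.899), at 20.1 ± 7.47 against 11.3 ± 2.06 CPM. miR-99a-5p had 0.52 (SE 0.48) and miR-125b-5p 0.48 (SE 0.64), and the 3 remaining members lay between -0.36 and 0.064. The median log2 difference was 0.48 over the 7 members and 0.042 over all 456, and 5 of 7 members were above 0, against 53.5% of all.

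Without control library 3, the member median was 0.41 and all 7 were above 0. Of all miRNAs, 273 of 484 were then above 0, with a median of 0.13. Without CIH library 3 the member median was 0.12, with 4 above 0. Of all miRNAs, 242 of 469 were then above 0, with a median of 0.035. Scaled by library totals alone the median over all miRNAs moved to 0.15, with 277 of 456 above 0. All 7 members were above 0 there, so the signs of miR-99b-5p and miR-99b-3p depend on the scaling.

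Within the 4 libraries numbered 1 and 2 the standard errors were smaller, and again 0 of 7 members passed. There 19 of 459 miRNAs rose (4.14%) and 24 fell (5.23%). miR-125a-5p had a log2 difference of 0.36 (SE 0.21, adjusted p = 0.334), miR-99b-5p 0.29 (SE 0.20, adjusted p = 0.448), miR-99b-3p 0.36 (SE 0.23, adjusted p = 0.395) and miR-125a-3p 0.49 (SE 0.35, adjusted p = 0.465). In all, 5 of 7 members were above 0, against 47.7% of all tested. The 4 member arms of the chromosome 17 cluster were above 0, also in each of the 12 settings tried, while let-7e-5p of the same cluster was at -0.34 and let-7e-3p at 0.32. The members from chromosomes 9 and 16 lay nearer 0: miR-99a-5p had 0.11 (SE 0.20), miR-125b-5p -0.020 (SE 0.20) and miR-100-5p -0.075 (SE 0.20). The CPM ranges of these 4 libraries did not overlap for miR-99b-5p and miR-125a-3p on the higher side (17.4% of all tested) and for miR-100-5p on the lower side (32% of all tested). A failed test with 2 libraries a group does not show equal levels.

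**Figure D2:**
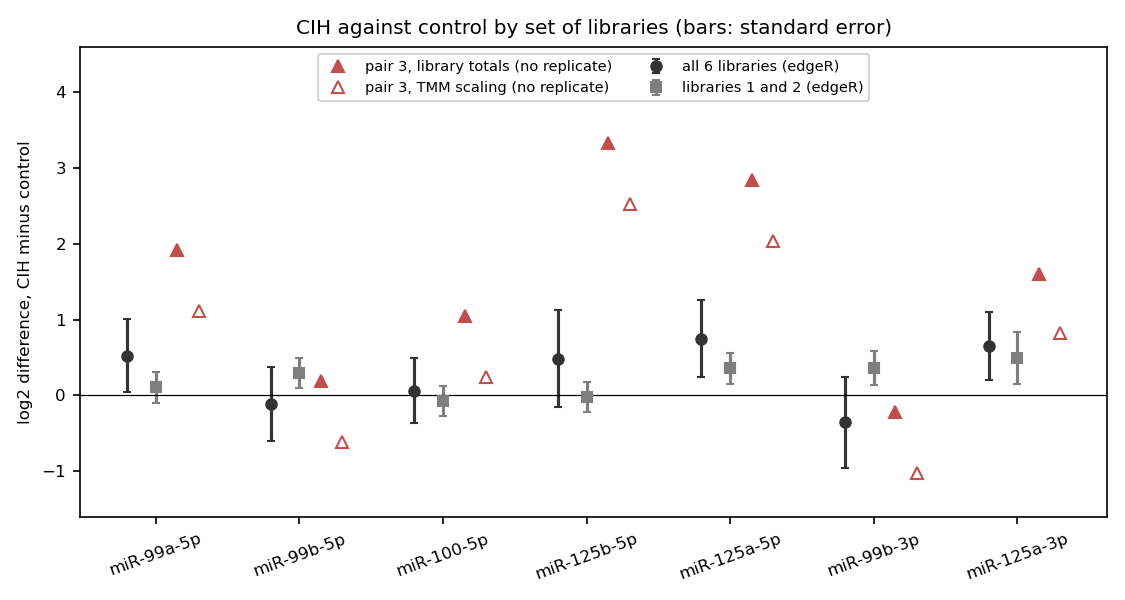
log2 difference, CIH minus control, of each member in all 6 libraries (black circles) and in the libraries numbered 1 and 2 (grey squares), both from edgeR with standard errors, and in the pair numbered 3, which has no replicate, by library totals (filled triangles) and with TMM scaling (open triangles). The pair numbered 3 reaches 3.33 for miR-125b-5p and 2.84 for miR-125a-5p by library totals, where the libraries numbered 1 and 2 have -0.020 and 0.36.

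In the pair numbered 3, with 1 library a group and so no test, 5 of 7 members were higher in CIH by over 2-fold and 0 lower. Of all 456 miRNAs, 41.7% were higher and 10.5% lower by that fold, with a median log2 difference of 0.74. miR-125b-5p was 10.1 times as high in CIH library 3 as in control library 3 (exact 95% interval 9.70 to 10.4, which covers counting error only), and 5.04% of all miRNAs had a larger ratio. miR-125a-5p was 7.19 times as high (6.76 to 7.64), miR-99a-5p 3.79, miR-125a-3p 3.15 and miR-100-5p 2.07 times. miR-99b-5p differed little, at 1.14 times, and miR-99b-3p stood at 0.856 times.

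Scaling changes some of these values. With TMM factors of 1.11 for CIH library 3 and 0.636 for control library 3, the median of all miRNAs was 0.048, and 3 members were higher by over 2-fold (miR-125b-5p at 2.52, miR-125a-5p at 2.04 and miR-99a-5p at 1.12 on the log2 scale) and 1 lower (miR-99b-3p at -1.03). miR-99b-5p then turned to -0.61. The share of all miRNAs past 2-fold with these factors was not computed. With miR-148a-3p left out of the totals, a choice made after seeing the data, miR-125b-5p stood at 5176 CPM in CIH library 3 and 763 CPM in control library 3, and miR-125a-5p at 1334 and 275 CPM. Control library 3 remained lowest for both.

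The difference of the miR-125 guides in that pair lay on the control side. Relative to the mean of libraries 1 and 2 of the same group, CIH library 3 differed by 0.20 on the log2 scale for miR-125b-5p and 0.15 for miR-125a-5p, while control library 3 differed by -3.27 and -2.47. The median of all 456 miRNAs was -0.16 for CIH library 3 and -0.92 for control library 3, and 5.70% of them lay further below control libraries 1 and 2 in control library 3 than miR-125b-5p did. Both miR-125 guides were lower there by over 5-fold, as were 16.7% of all 456 miRNAs. For miR-99a-5p CIH library 3 differed by 1.05, above the median of its library. Control library 3 differed by -0.89, near the median there, with 51.1% of all tested miRNAs lower. Summed stromal miRNAs (4 of 4 listed present) stood at 10880, 10875 and 67144 CPM in CIH libraries 1, 2 and 3. In control libraries 1, 2 and 3 they stood at 16029, 13124 and 6420 CPM, lowest in control library 3. Summed endothelial miRNAs were lowest there too, at 33.8 CPM, while muscle miRNAs were highest there, at 111 CPM. The other marker lists were neither lowest nor highest in control library 3. The part of cell composition or library quality in the miR-125 values was not tested, and in bulk RNA fewer cells of a type and less RNA per cell cannot be told apart.

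An interaction of group and set (edgeR) was fitted to compare the CIH difference of the pair numbered 3 with that of the libraries numbered 1 and 2, and 5 of 7 members passed its threshold, against 30.3% of 456 miRNAs. Only libraries numbered 1 and 2 inform its spread. Libraries 1 and 2 of a group differed by a chi-square per degree of freedom of 468 under CIH and 159 in control, while pairs that include a library numbered 3 differed by 8653 to 15324. The passes are therefore given as values and not as evidence of a different response to CIH. The interaction was 2.54 for miR-125b-5p (SE 0.36), 1.68 for miR-125a-5p (SE 0.36) and 1.01 for miR-99a-5p (SE 0.35). It was -1.39 for miR-99b-3p and -0.91 for miR-99b-5p. By library totals alone 4 of 7 passed, against 158 of 456 miRNAs. There miR-99b-3p at -0.44 and miR-99b-5p at 0.038 were no longer among the passes, and miR-100-5p, at 1.26, was added.

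Hairpins of the same cluster had unequal read counts, which unequal capture can affect. The proportion of miR-99b-5p to miR-125a-5p in control library 3 was unlike that in the other libraries. miR-99b-5p and miR-125a-5p come from neighbouring hairpins on chromosome 17. Their ratio was 7.30, 7.93 and 8.60 in CIH libraries 1, 2 and 3 and 7.05, 8.93 and 54.0 in control libraries 1, 2 and 3. This ratio needs no scaling between libraries, and 5 of 6 libraries lay between 7.05 and 8.93. The third hairpin of the cluster did not follow the same split: miR-99b-5p over let-7e-5p was 18.2, 21.6 and 5.66 in CIH and 12.1, 13.4 and 17.4 in control libraries, so here CIH library 3 was the one apart.

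Summed over the clusters, the 3 guides with the miR-99/100 seed stood at 33826, 25103 and 54396 CPM under CIH and 30576, 28442 and 20821 CPM in control libraries. The sum of miR-125a-5p and miR-125b-5p was 4934, 3625 and 4888 CPM under CIH and 4619, 4411 and 526 CPM in control libraries. The miR-99/100 sum was 6.86, 6.93 and 11.1 times the miR-125 sum in CIH libraries, against 6.62, 6.45 and 39.6 times in control libraries. miR-351-5p, an X-linked miRNA known to share the miR-125 seed, added 2.51%, 2.40% and 14.0% of the combined miR-125 and miR-351 level in CIH and 3.90%, 3.09% and 12.01% in control libraries. The combined level with it was 5683 CPM in CIH library 3 and 598 CPM in control library 3, so miR-351-5p did not make up the difference.

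Within the miR-99/100 sum, miR-99a-5p made up 68.2%, 63.4% and 74.0% in CIH and 68.9%, 64.8% and 51.0% in control libraries. The share of miR-100-5p was narrow and did not overlap between groups, at 10.3%, 11.1% and 10.1% in CIH and 11.8%, 12.8% and 12.8% in control libraries. This share is among several shares and ratios examined here, all of members chosen with results known. It was given no test, and no background for the lack of overlap was computed. Its value also depends on how reads matching both miR-99a-5p and miR-100-5p were counted, which is not given. Within the miR-125 sum, miR-125b-5p made up 77.7% to 79.9% in CIH and 73.5% to 83.8% in control libraries, so miR-125b-5p was the major miR-125 guide in every library, control library 3 included.

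**Figure D3:**
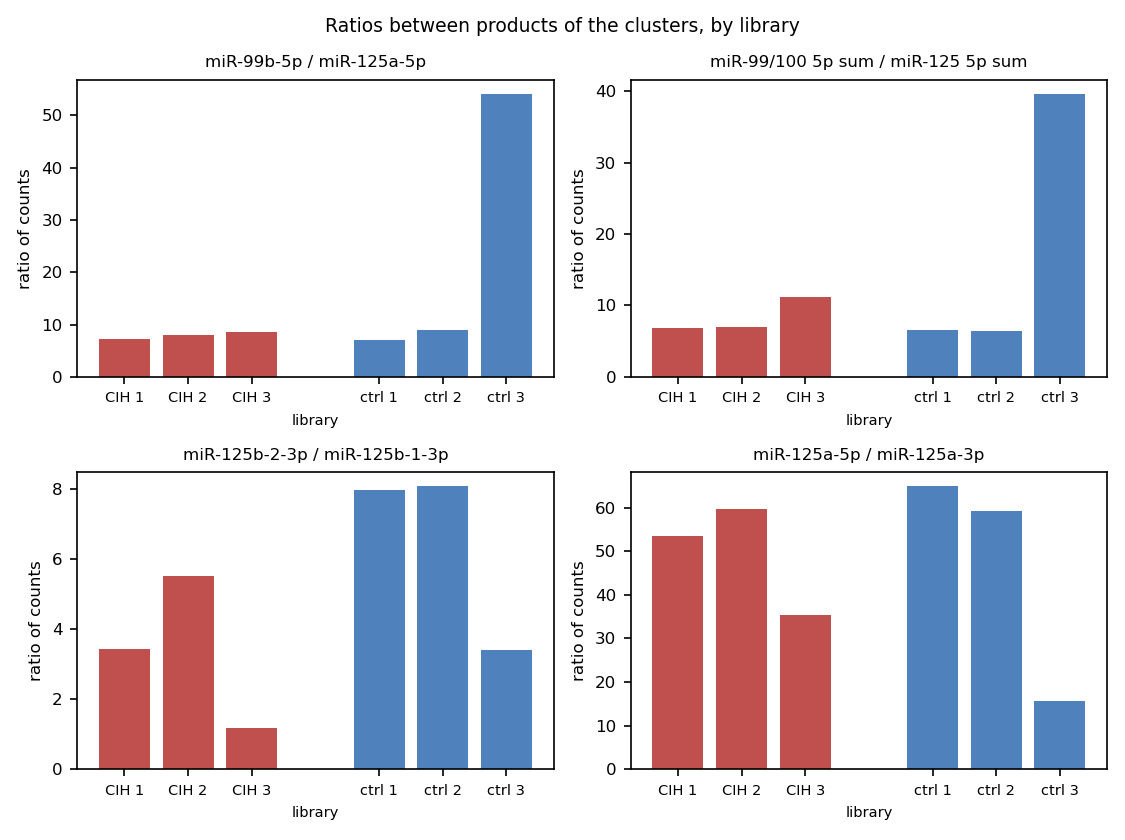
Ratios of counts between products of the clusters in each library, CIH in red and control (ctrl) in blue, on linear axes from 0. miR-99b-5p over miR-125a-5p is 54.0 in control library 3 and between 7.05 and 8.93 in the other 5; miR-125b-2-3p over miR-125b-1-3p is lower in the CIH library of each number.

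The 3p arms, which are made in step with the 5p arms before 1 strand is discarded, allow the paralogous miR-125b loci to be told apart. miR-125b-1-3p, from chromosome 9, stood at 58.1, 33.5 and 210 CPM under CIH and 34.2, 30.5 and 19.98 CPM in control libraries. miR-125b-2-3p, from chromosome 16, stood at 199, 185 and 246 CPM under CIH and 273, 246 and 67.9 CPM in control libraries. Their ratio, chromosome 16 over chromosome 9, was 3.43, 5.52 and 1.17 in CIH libraries 1, 2 and 3 against 7.98, 8.07 and 3.40 in control libraries 1, 2 and 3. It was lower in CIH for each library number, with groups that overlapped through control library 3.

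The log2 difference of miR-125b-1-3p was 1.65 in all 6 libraries (SE 0.68, adjusted p = 0.833) and 0.62 in the libraries numbered 1 and 2 (SE 0.31, adjusted p = 0.243). That of miR-125b-2-3p was 0.088 (SE 0.45, adjusted p = 0.988) and -0.28 (SE 0.23, adjusted p = 0.503). Neither passed in either comparison.

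The balance of arms also shifted in control library 3. miR-125a-5p exceeded miR-125a-3p by 53.5, 59.6 and 35.5 times in CIH and 64.9, 59.2 and 15.6 times in control libraries. miR-125b-5p exceeded its 3p arms together by 15.3, 12.9 and 8.51 times in CIH and 12.3, 13.4 and 4.40 times in control libraries. For both hairpin families the libraries numbered 3 had the lowest excess in their group, and control library 3 the lowest of all. miR-99b-5p over miR-99b-3p moved less, at 32.0, 31.7 and 28.1 in CIH and 28.6, 38.9 and 21.1 in control libraries. The 5p guides of miR-125 were low in control library 3 relative both to miR-99b-5p and to their own opposite arms. By library totals miR-99b-5p itself differed there by 0.30 on the log2 scale from control libraries 1 and 2. The median of all tested miRNAs was -0.92, and 81.6% of them lay lower than miR-99b-5p.

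In these same comparisons the remaining arms of the clusters gave no calls. Of the 4 other arms, 3 were tested, and 0 rose and 0 fell in either comparison; miR-99a-3p stood at 0.969 to 3.50 CPM and miR-100-3p, at 0.121 to 1.27 CPM, was too scarce to test. Of the 6 let-7 arms 5 were tested, and 0 rose and 0 fell. Both lists were tested in all 6 libraries and in those numbered 1 and 2. Of all miRNAs, 0 of 456 were called in all 6 libraries. In those numbered 1 and 2, 19 of 459 rose (4.14%) and 24 fell (5.23%), so few calls would be looked for in lists this short. In the libraries numbered 1 and 2, leaving out CIH library 2 brought miR-125b-1-3p past the threshold (log2 difference 0.88, adjusted p = 0.0123, edgeR), and leaving out CIH library 1 brought let-7c-5p past it (-0.80, adjusted p = 0.0427, edgeR), with the lone CIH library assumed to vary like the control libraries. In the interaction of group and set, 2 of 3 other arms and 3 of 5 let-7 arms passed, against 30.3% of 456 miRNAs, with the limit given above.

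In the libraries numbered 1 and 2 let-7c-5p had a log2 difference of -0.51 (SE 0.21, adjusted p = 0.153) and let-7e-5p -0.34 (SE 0.21, adjusted p = 0.395), opposite in sign to miR-99b-5p and miR-125a-5p of the same cluster as let-7e. let-7c-5p stood at 2127, 1208 and 6168 CPM under CIH and 2576, 2546 and 2605 CPM in control libraries. let-7a-5p stood at 3025, 2103 and 5257 CPM under CIH and 3327, 2876 and 1034 CPM in control libraries. let-7a-5p and let-7c-5p are also made from hairpins outside these clusters.

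**Figure D4:**
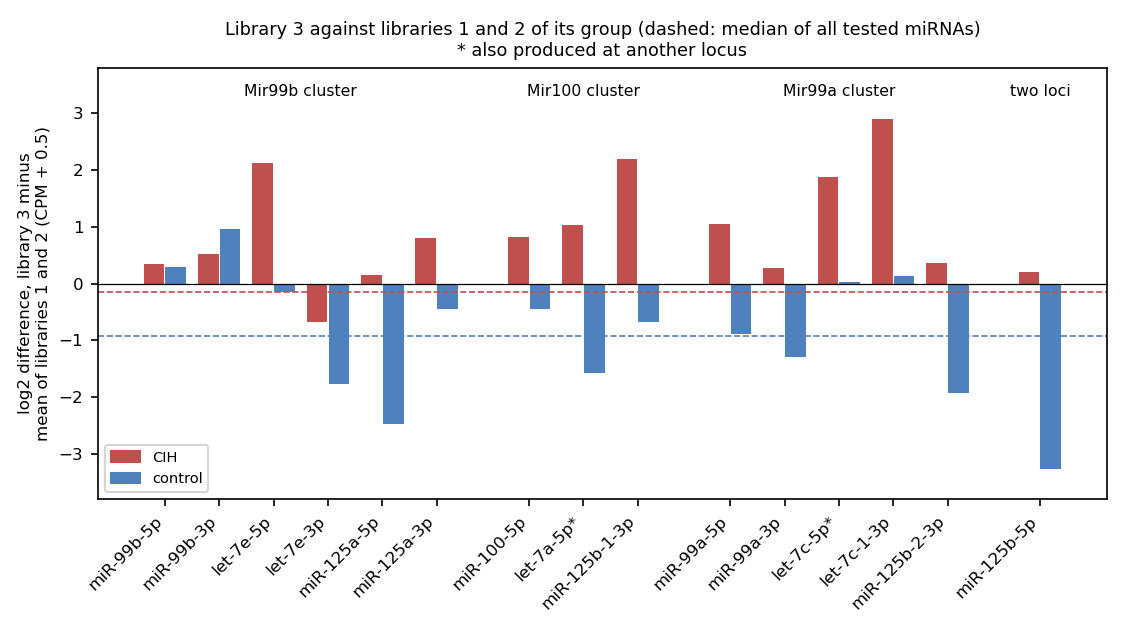
log2 difference between library 3 and the mean of libraries 1 and 2 of the same group, in CIH (red) and control (blue), for the arms of each cluster that were tested, with 0.5 CPM added; dashed lines give the median of all tested miRNAs, -0.16 in CIH and -0.92 in control. miR-125b-5p (-3.27) and miR-125a-5p (-2.47) are the lowest in control, while miR-99b-5p is at 0.30.

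The relatives miR-10a-5p and miR-10b-5p have a sequence that resembles that of miR-99/100 with a shifted seed. Like miR-99b-5p and miR-99b-3p, they lacked the low value of the miR-125 guides in control library 3. miR-10b-5p stood at 36010, 32930 and 56547 CPM under CIH and 31753, 37358 and 82007 CPM in control libraries, highest in control library 3. miR-10a-5p stood at 733, 614 and 2482 CPM under CIH and 634, 659 and 1880 CPM in control libraries, high in both libraries numbered 3.

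To find miRNAs with similar profiles, the root mean square difference between log2 levels, each centred on its own mean over the 6 libraries, was computed against 256 miRNAs of at least 10 CPM. miR-99b-5p was closest to miR-532-5p (0.055), miR-15b-3p (0.113) and miR-423-5p (0.225), against a median of 0.750 over all candidates. miR-99a-5p was closest to miR-669a-5p (0.157), miR-125a-3p (0.189) and miR-26b-5p (0.203). miR-100-5p was closest to miR-98-5p (0.157), miR-143-5p (0.176) and miR-27b-3p (0.178).

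miR-125b-5p was closest to miR-872-5p (0.148), miR-181b-5p (0.150) and miR-125a-5p (0.285), and miR-125a-5p to miR-222-5p (0.205), miR-23a-3p (0.257) and miR-344-3p (0.274). By this measure the miR-125 guides, from different chromosomes, were closer to each other (0.285) than miR-125a-5p was to miR-99b-5p of its own cluster (1.04). miR-99a-5p and miR-100-5p, also from different chromosomes, differed by 0.279. Closeness did not always follow the seed: miR-99b-5p differed from miR-100-5p by 0.301 and from miR-99a-5p by 0.534. The opposite arm miR-125a-3p, from chromosome 17, differed from miR-99a-5p by 0.189 and from miR-100-5p by 0.280. These are descriptions over 6 libraries, of which those numbered 3 stand apart.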

How the data were processed

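The deposited values are raw counts of reads per mature miRNA name, 1 file for each of 6 libraries; where a header says FPKM, the values are whole numbers with a different total in each library and were taken as counts. featureCounts (1.5.0-p3), the build GRCm38 and DESeq (1.8.3) stand in the submitters' processing notes, without their roles. Not given in the sources used here are the trimming, aligner, miRBase release and handling of multiply matching reads. The libraries numbered 1 and 2 list 1053 names and those numbered 3 list 1186; the 929 known names in every file, with at least 99.97% of each library's reads, were tested, and 0 columns of other samples were present.

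Levels are CPM by file total. Tests used edgeR 4.0.16 (quasi-likelihood, robust, TMM, filterByExpr, file totals as library sizes) in R 4.3.3, with group as the term and Benjamini-Hochberg adjustment at 0.05 over all tested names. DESeq2 1.42.0 and limma-voom (limma 3.58.1) were alternatives, beside other scalings and filters, a set term, the replicate number as a block and leaving out each library. The fits were tested on simulated data. Python 3.11.15 with pandas 2.3.3 and numpy 2.4.6 computed levels, ratios and likeness.

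Same-number libraries deviated together from their group means (correlations of 0.35, 0.39 and 0.40 across 257 miRNAs, all 3 above 0.1). CIH library 1 with control library 2 (0.20) and CIH library 2 with control library 1 (0.43) did so too. Each group mean includes the distant library numbered 3, which moves libraries 1 and 2 of both groups the same way. The correlations therefore cannot show that the numbers are pairs, and the blocked fit takes them as pairs by assumption. Replicates differed beyond counting noise (lowest chi-square 159 per degree of freedom). Intervals and floors cover counting error only. The members, lists, sets and the rule for naming miRNAs were chosen with earlier results of these data known. The rule named the 7 members, other arms and let-7 arms of the clusters, shared or shifted-seed relatives, and the 3 closest profiles of each 5p member. Seed sharing was taken from general knowledge, since no sequence table was used here.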

Additional observations from a re-analysis of the deposited data

Results flagged for a closer look

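The CIH difference of the pair numbered 3 was set against that of the libraries numbered 1 and 2 by an interaction of group and set (edgeR quasi-likelihood test), which 5 of the 7 members passed, against 30.3% of all 456 miRNAs. The pair numbered 3 has 1 library a group, so only libraries numbered 1 and 2 inform the spread, and libraries numbered 3 differ from these far more than these differ from each other. The passes are thus no evidence of a different response to CIH. The interaction was 2.54 for mmu-miR-125b-5p, 1.68 for mmu-miR-125a-5p, 1.01 for mmu-miR-99a-5p, -0.91 for mmu-miR-99b-5p and -1.39 for mmu-miR-99b-3p. By library totals alone 4 members passed, against 158 of 456 miRNAs: miR-125b-5p (3.48), miR-125a-5p (2.63), miR-99a-5p (1.94) and miR-100-5p (1.26). miR-99b-5p (0.038) and miR-99b-3p (-0.44) then did not. With 3 libraries a group, single libraries far from their group were not looked for by a rule.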

How the results depend on the processing

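No member was called in all 6 libraries or in those numbered 1 and 2 under any setting run, the replicate block and DESeq2 included, and the block changed no call of a member. With the replicate block the count over all miRNAs was 0 in all 6 libraries and 48 in those numbered 1 and 2, where it was 43 without it. That 43 ranged from 9 to 97 when a library was left out: it was 23 and 97 when CIH libraries 1 and 2 were dropped in turn, and 14 and 9 when control libraries 1 and 2 were. Over all 6 libraries no miRNA was called by edgeR (23 at an unadjusted p under 0.05), DESeq2 (37) or limma-voom (21).

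The signs of some members turned in fits that called none of them. In all 6 libraries miR-99b-5p was at 0.17 and miR-99b-3p at 0.015 by library totals, miR-100-5p was at -0.032 with DESeq2 size factors and by the DESeq2 test, and leaving out a library gave ranges of -0.26 to 0.40 for miR-99b-5p, -0.66 to 0.55 for miR-99b-3p and -0.23 to 0.26 for miR-100-5p. In the libraries numbered 1 and 2 miR-99a-5p was at -0.019 by library totals, and leaving out a library gave -0.023 to 0.26 for miR-99a-5p, -0.15 to 0.064 for miR-100-5p and -0.12 to 0.10 for miR-125b-5p. In the pair numbered 3 miR-99b-5p was at 0.19 by library totals, -0.61 with TMM and -0.37 without miR-148a-3p in the totals. Its interaction, which passed at -0.91 with TMM, was 0.038 by library totals and did not pass. Depth limits miR-125a-3p, at 74 reads in control library 3, more than the other members.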
